A study of Homo sapiens with 6 samples.

Results

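The 10 genes described here belong to the YAP/TEAD axis, the transcriptional output of the Hippo pathway. They are CCN1, CCN2, ANKRD1, AMOTL2, AJUBA, LATS2 and AXL, which YAP/TEAD is known to induce, and YAP1, WWTR1 and TEAD1, which make up the transcription complex. The genes were chosen by name out of 19775 genes in all, and the annotation of the array already gave their current symbols. The older symbols CYR61 for CCN1, CTGF for CCN2 and JUB for AJUBA were searched only among probe sets naming several genes. The 10 genes were represented by 24 probe sets, of which 12 reached a level of 5 in some pool and 12 did not. There were 0 further probe sets that named a member together with another gene.

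RNA was measured on 1-colour human arrays with 54675 probe sets, in tumours grown in mice from HT-29, a human cell line established from a colorectal adenocarcinoma. Balb/c (nu/nu) mice aged 6 to 8 weeks, a strain that lacks mature T cells, received cells at both femoral regions (0.1 ml of a suspension at 10000000 cells per ml). The treated pool came from tumours heated on day 18 for 30 min by modulated electro-hyperthermia, an electromagnetic heating of the tumour, and taken 4 h later. The opposite-side pool came from untreated tumours on the other side of treated animals, and the control pool from tumours labelled as control. Each group was 1 pool of RNA from macrodissected tissue sections, hybridised to 2 arrays that the labels call technical replicates. All 6 arrays therefore describe 3 pools, no test between conditions was possible, and the number of arrays limits the precision of each pool's values. The labels give no number of animals per pool. An SD is taken over the 2 technical arrays of a pool and holds no spread between tumours.

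The values are on the log2 scale, and a gene with a pool mean at or above 5 is called detected. A gene with several probe sets is represented by whichever of them was highest on average over the 6 arrays. Among the 12992 probe sets that reached 5 in some pool, the median absolute difference was 0.050 to 0.059 between the arrays of a pool and 0.142 to 0.168 between arrays of different pools. Of 10 tumour epithelial markers 9 were detected, and CDX2 was below 5 in every pool. As bulk tissue was measured, fewer cells of a type and less RNA per cell cannot be told apart.

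YAP1 and its paralogue WWTR1 (also called TAZ) are co-activators that do not bind DNA themselves and are brought to promoters and enhancers by TEAD factors such as TEAD1. The Hippo kinases STK3 and STK4 activate LATS1 and LATS2, which phosphorylate YAP1 and WWTR1 and hold them in the cytoplasm. In the intestine the axis is known for its part in regeneration after injury and in tumour growth. CCN1 and CCN2 encode secreted matricellular proteins, respond quickly to serum and mechanical load, and are often used as readouts of YAP/TEAD activity.

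The promoters of CCN2, ANKRD1 and YAP1 are shown because they carry the letters CATTCC, the core bound by TEAD factors, in the 250 bases before the annotated start. Sequences are those of RefSeq on GRCh38.p14, written 5′ to 3′ on the strand of the gene, with CATTCC or its reverse complement GGAATG in capitals. CCN2 lies at chr6:131951373-131951622 (minus strand), ANKRD1 at chr10:90921088-90921337 (minus strand) and YAP1 at chr11:102110197-102110446 (plus strand).
CCN2: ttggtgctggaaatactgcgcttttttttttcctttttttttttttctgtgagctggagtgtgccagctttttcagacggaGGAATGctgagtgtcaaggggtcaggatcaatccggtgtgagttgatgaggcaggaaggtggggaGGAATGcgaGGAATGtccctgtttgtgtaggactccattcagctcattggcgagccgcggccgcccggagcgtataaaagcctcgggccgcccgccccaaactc
ANKRD1: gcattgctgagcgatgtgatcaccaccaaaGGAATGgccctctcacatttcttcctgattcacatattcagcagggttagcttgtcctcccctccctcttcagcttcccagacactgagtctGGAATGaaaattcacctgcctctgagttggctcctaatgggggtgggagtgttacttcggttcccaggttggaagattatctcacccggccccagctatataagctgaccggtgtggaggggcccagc
YAP1: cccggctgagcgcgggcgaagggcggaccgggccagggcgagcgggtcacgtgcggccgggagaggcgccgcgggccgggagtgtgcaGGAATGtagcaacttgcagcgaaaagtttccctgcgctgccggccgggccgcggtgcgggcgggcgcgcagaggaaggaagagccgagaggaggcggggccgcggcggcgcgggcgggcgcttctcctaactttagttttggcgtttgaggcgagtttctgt

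The CCN2 window held 3 copies, which began 169, 104 and 95 bases before the start. ANKRD1 held 2 copies, beginning 220 and 128 bases before the start, and YAP1 held 1 copy at 162 bases. Another annotated start of AMOTL2, of AJUBA and of AXL also had 1 copy each in the 250 bases before it. These are shown as 30 bases around the motif, at chr3:134374499-134374528 (minus strand), chr14:22976884-22976913 (minus strand) and chr19:41226531-41226560 (plus strand).
AMOTL2: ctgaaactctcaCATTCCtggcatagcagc
AJUBA: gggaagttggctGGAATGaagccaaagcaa
AXL: cagactttgcacCATTCCactccctccgct

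Windows were matched for 8 of the 10 genes, all but CCN1 and TEAD1. Of their 12 windows 6 held the TEAD core, as did 11.9% of all 35116 windows of this length. Of all windows 29 (0.0826%) held 3 or more copies, as CCN2 did. The CArG box of the serum response factor SRF, searched on both strands, was in 0 of the 12 windows and in 1.16% of all windows. The heat shock element core GAANNTTC, which reads the same on both strands, was in 1 of the 12, that of ANKRD1, and in 5.78% of all windows. It began 123 bases before the start there and shared 1 base with the nearer TEAD core. A match is a run of letters in this window and does not show binding.

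The treated pool was set against the control pool to see how the axis stood 4 h after heating. CCN1 and CCN2 were about 2.05-fold and 2.09-fold higher in the treated pool than in the controls, and the other detected members were higher by less. A gene was called when its pool means were 1 or more apart, the sign was the same in all 4 pairs of arrays, and neither array of the higher pool was below 5. CCN1 and CCN2 passed this rule, 5 detected members did not, and ANKRD1, AXL and WWTR1 were below 5 in every pool. Of the 7204 genes detected in either pool, 0.625% were called higher in the treated pool and 0.0972% lower.

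CCN1 stood at 7.04 and 6.88 on the treated arrays, 6.41 and 6.40 on the opposite-side arrays, and 5.91 and 5.93 on the control arrays. The pools did not overlap, and the opposite-side pool lay between the other pools. The means were 6.96 ± 0.112 in the treated pool and 5.92 ± 0.016 in controls (SD, 2 technical arrays each), a difference of 1.04 or 2.05-fold. Without the higher treated array, replicate 1, the difference was 0.96 and CCN1 no longer passed the rule. The second CCN1 probe set measured 5.21 ± 0.0035 in the treated pool and 4.19 ± 0.064 in controls. As its control mean was below 5 the fold is given against 5, as at least 1.16-fold, while the difference as measured was 1.02.

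CCN2, represented by 1 probe set, stood at 6.38 and 6.41 on the treated arrays, 5.43 and 5.45 on the opposite-side arrays, and 5.35 and 5.31 on the control arrays. Its treated arrays lay apart from all other arrays, and its opposite-side arrays lay just above the control arrays. The means were 6.39 ± 0.026 in the treated pool and 5.33 ± 0.033 in controls, a difference of 1.06 or 2.09-fold. Differences as high as those of CCN1 and CCN2 were shown by 0.597% and 0.541% of the detected genes. For comparison, the difference was 1.78 for EGR1, an immediate early transcription factor, and 3.86 for HSPA6, an inducible HSP70 chaperone whose control mean lay below 5. The other EGR1 probe sets gave 1.47 and 1.06, so whether EGR1 differed by more than CCN2 depended on the probe set.

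**Figure D1:**
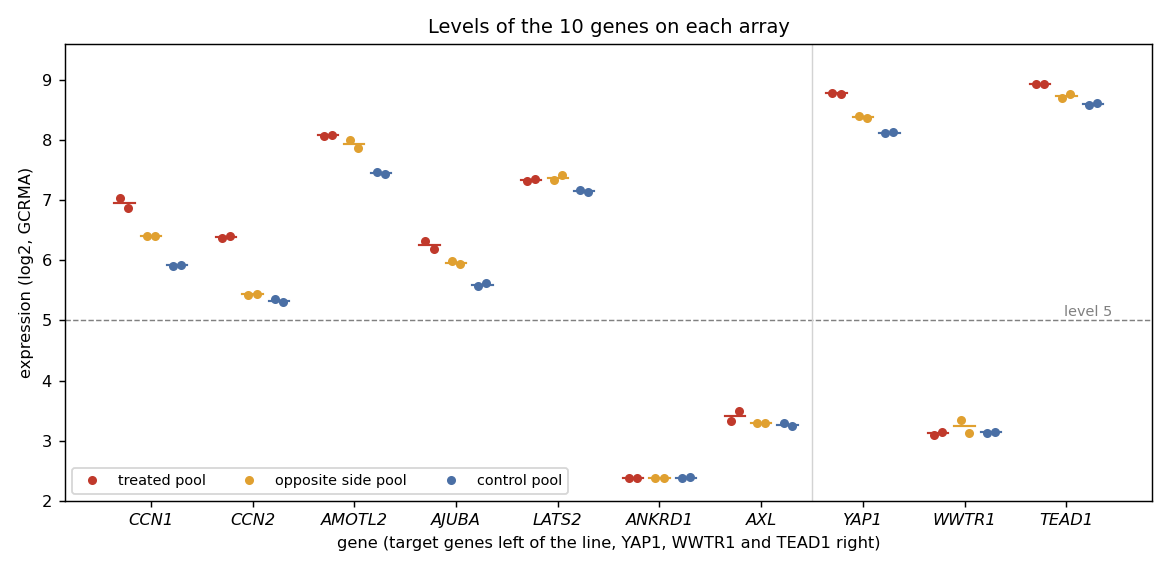
Expression (log2) of the 10 genes on each array, by the probe set that represents each gene. Points are arrays and short lines pool means, with the treated, opposite-side and control pools from left to right for each gene. CCN1 and CCN2 are about 1 higher in the treated pool than in the controls, while ANKRD1, AXL and WWTR1 lie below the dashed line at 5 in every pool.

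AMOTL2, AJUBA and LATS2 encode proteins that feed back on the pathway, AMOTL2 by holding YAP1 at junctions, AJUBA by binding LATS kinases, and LATS2 as a kinase of YAP1. AMOTL2 stood at 8.08 and 8.09 on the treated arrays, 8.01 and 7.87 on the opposite-side arrays, and 7.46 and 7.44 on the control arrays. The treated minus control difference was 0.63 or 1.55-fold, and both pools of the treated animals lay above the control pool. AJUBA stood at 6.33 and 6.19 on the treated arrays, 5.98 and 5.94 on the opposite-side arrays, and 5.57 and 5.62 on the control arrays. Its pools did not overlap, in the same order as for CCN1, and it was 0.66 or 1.58-fold higher in the treated pool than in the controls. A second AJUBA probe set, below 5 throughout, had a mean of 4.63 in the treated pool and 4.03 in controls, a difference of 0.61.

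The LATS2 probe sets gave unlike sizes. The representative probe set was at 7.33 and 7.36 on the treated arrays, 7.33 and 7.42 on the opposite-side arrays, and 7.18 and 7.14 on the control arrays, a treated minus control difference of 0.18. The other detected probe set was at 5.63 and 5.69 on the treated arrays, 5.52 and 5.53 on the opposite-side arrays, and 4.73 and 4.90 on the control arrays. It differed by 0.85, the larger of the LATS2 values, which is at least 1.58-fold when taken against 5. On both probe sets the treated arrays lay above the control arrays, and 2 further LATS2 probe sets were below 3 in every pool.

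ANKRD1, an ankyrin repeat protein of muscle that is induced by YAP/TEAD in many adherent cells, had a mean of 2.38 in the treated, the opposite-side and the control pool. The lowest value of the table is 2.37. AXL, a receptor tyrosine kinase, had means of 3.41 in the treated pool, 3.29 in the opposite-side pool and 3.26 in the control pool. Both genes lay below 5 throughout, and no fold is given.

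YAP1 stood at 8.79 and 8.77 on the treated arrays, 8.41 and 8.38 on the opposite-side arrays, and 8.12 and 8.14 on the control arrays. The pools did not overlap, and the treated minus control difference was 0.65 or 1.57-fold. The other YAP1 probe sets differed by 0.16 and 0.26, so the size depended on the probe set. TEAD1 was at 8.93 and 8.94 on the treated arrays, 8.70 and 8.76 on the opposite-side arrays, and 8.59 and 8.61 on the control arrays. It was 0.33 or 1.26-fold higher in the treated pool than in the controls, and 0.29 higher by its other detected probe set. WWTR1 had means of 3.12 in the treated pool, 3.24 in the opposite-side pool and 3.14 in the control pool by its representative probe set. The 3 WWTR1 probe sets were all below 4, and 1 of them had a mean of 3.57 in the treated pool and 2.74 in controls.

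All 7 detected members lay higher in the treated pool than in the controls without overlap of the arrays, as did 34.7% of all detected genes, while 40.5% lay lower without overlap. This count was 7 of 7 under each of the 3 other scalings of the arrays that were tried. Under these, 32.5% to 38.0% of all detected genes lay higher and 37.9% to 44.5% lower. The median and spike-in scalings shifted this comparison by 0.012 and -0.014, less than the smallest member difference of 0.18, so they could hardly change the count. The median difference was 0.65 over the 7 members and -0.02 over all detected genes. Differences as high as theirs were found in 1.96% of detected genes for AJUBA, 2.05% for YAP1, 2.19% for AMOTL2, 10.1% for TEAD1 and 20.3% for LATS2. The members were picked as an axis with earlier results of these arrays known, so these shares describe the pools and are no test.

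**Figure D2:**
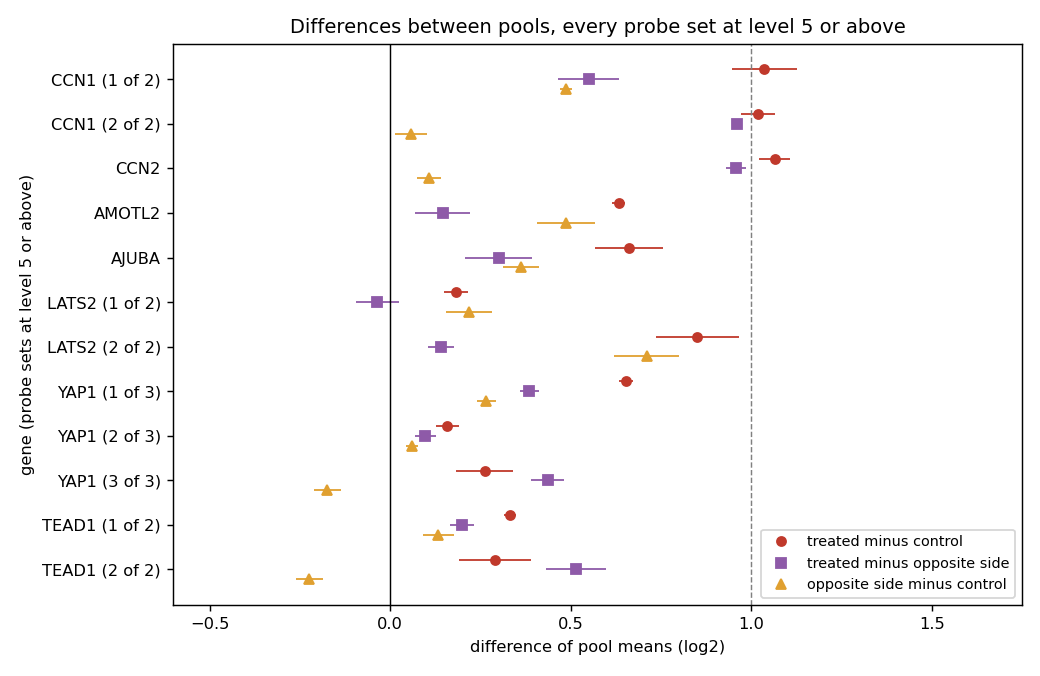
Differences of pool means (log2) for the 12 probe sets of the 10 genes that reached 5 in some pool, numbered within a gene from the highest level down. Symbols are differences of pool means, bars span the 4 array-to-array differences, and the dashed line marks 1. Every treated minus control difference is above 0, while YAP1 and TEAD1 each have a probe set whose opposite-side minus control difference is below 0.

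The treated pool was next set against the tumours on the other side of the same animals, which shares its treated arrays with the comparison above. Here 0 members passed the rule, and CCN2, at a difference of 0.96 or 1.94-fold, came nearest by its representative probe set. Of 7155 genes detected in either pool, 0.28% were called higher in the treated pool and 0.0559% lower. With the arrays set to the same median of 40 probe sets for spike-in control RNAs, the calls over all genes were 16 higher and 15 lower, against 20 and 4 as deposited.

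The CCN1 probe sets differed here. CCN1 was 0.55 or 1.46-fold higher in the treated than in the opposite-side pool by its representative probe set, and 0.96 higher by the other, whose opposite-side mean was 4.25. The difference was 0.39 for YAP1, 0.30 for AJUBA and 0.20 for TEAD1, and 0.15 for AMOTL2, which turned to -0.044 with the spike-in scaling. LATS2 differed by -0.036 with overlapping arrays, which no longer overlapped when the arrays were set to the same median. By its other detected probe set LATS2 was 0.14 higher in the treated pool without overlap. Other detected probe sets gave 0.51 for TEAD1 and 0.44 and 0.10 for YAP1, so these sizes also depended on the probe set. Of the 7 detected members 6 lay higher in the treated pool without overlap, as did 38.6% of all detected genes, while 0 members and 33.2% of all lay lower. With the spike-in scaling, which shifted this comparison by -0.19, 4 members lay higher and 1 lower, beside 13.1% of all detected genes higher and 69.0% lower. The median difference was 0.30 over the 7 members and 0.01 over all detected genes.

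The opposite-side pool was set against the control pool to describe the untreated tumours of treated animals. In this comparison too 0 members passed the rule, where 0.237% of 7182 detected genes were called higher in the opposite-side pool and 0.167% lower. The calls over all genes were 32 higher and 4 lower with the spike-in scaling, against 17 and 12 as deposited. AMOTL2 and CCN1 differed by 0.49 each, AJUBA by 0.36, YAP1 by 0.27, LATS2 by 0.22, TEAD1 by 0.13 and CCN2 by 0.11. All 7 detected members lay higher without overlap, as did 34% of all detected genes, while 42.4% of all lay lower. With the spike-in scaling 7 of 7 members again lay higher, but so did 65.7% of all detected genes, whose median was 0.16, while 17.3% lay lower. This comparison and the first share the control arrays, so the counts of 7 are not independent.

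Several of these differences depended on the probe set. The second CCN1 probe set had 4.25 in the opposite-side pool and 4.19 in the control pool, a difference of 0.058, both below 5. The second LATS2 probe set was 0.71 higher in the opposite-side pool. YAP1 by its lowest probe set differed by -0.17 and TEAD1 by its second detected probe set by -0.22, both without overlap of the arrays and against the sign of their representative probe sets. The spike-in scaling shifted this comparison by 0.18, about the size of the YAP1 value. For this YAP1 probe set the values were 5.54 and 5.63 on the treated arrays, 5.15 on both opposite-side arrays, and 5.36 and 5.29 on the control arrays. For the second TEAD1 probe set they were 5.47 and 5.62 on the treated arrays, 5.04 and 5.02 on the opposite-side arrays, and 5.23 and 5.28 on the control arrays. The probe sets of each gene thus shared the sign of treated minus control and not the order of the opposite-side and control pools.

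The genes with profiles most like CCN1 and CCN2 were named by the distance between pool means centred on each gene, over the 3 pools and 7266 other detected genes. Nearest to CCN1 were SERPINA3, a protease inhibitor of the acute phase (distance 0.024), the transcription factor MYC (0.026), the ubiquitin-conjugating enzyme UBE2G1 (0.026) and the membrane protein DCBLD2 (0.027). These distances were smaller than the SD of 0.112 between the treated arrays of CCN1, so which genes are nearest and their order are not resolved. MYC had means of 8.23 in the treated pool, 7.70 in the opposite-side pool and 7.24 in the control pool. Nearest to CCN2 were FAM83D, which acts at the mitotic spindle (0.065), the histone chaperone HIRA (0.106), the elastase inhibitor PI3 (0.115) and the chemokine CXCL1 (0.130). FAM83D and CXCL1 lay below 5 in the opposite-side and control pools and SERPINA3 in the control pool, so their distances rest in part on values under the detection level. PI3 had means of 7.71 in the treated pool, 6.78 in the opposite-side pool and 6.52 in the control pool.

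Further target genes, taken from a published YAP/TAZ signature and other known targets, were mixed. Of 29 genes 26 were measured by a probe set of their own and 15 were detected in either pool. Of these 15, THBS1 was called higher in the treated pool, 0 were called lower and 14 did not pass. The shares called over all detected genes were 0.625% higher and 0.0972% lower. Without overlap of the arrays 11 were higher and 3 lower, beside 34.7% and 40.5% of all detected genes, and the median was 0.26. THBS1, the matrix protein thrombospondin 1, had 6.40 ± 0.137 in the treated pool and 4.58 ± 0.0071 in controls, at least 2.64-fold against 5, and 5.81 ± 0.023 in the opposite-side pool. Its 6 other probe sets were below 4 in every pool.

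EDN1, the vasoconstrictor peptide endothelin 1, had 8.94 ± 0.027 in the treated pool, 8.06 ± 0.0007 in the opposite-side pool and 8.15 ± 0.062 in the control pool. Its treated minus control difference of 0.80 was matched by 0.82 on a second detected probe set. LATS1, the paralogue of LATS2, differed by 0.64, and TNS1, a focal adhesion protein, by -0.55. Against the opposite-side pool 0 of 15 passed in either direction, EDN1 differed by 0.88, THBS1 by 0.59 and TNS1 by -0.49, and the list median was 0.10. Over all detected genes 0.28% were called higher and 0.0559% lower in that comparison. For opposite side minus control THBS1 alone of 14 detected genes passed, with a difference of 1.23 (at least 1.76-fold). There 0.237% of all detected genes were called higher and 0.167% lower.

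Among the kinases and upstream regulators of the pathway single genes differed, while the list medians lay within 0.1 of 0. Of 26 genes 18 were detected and 0 passed the rule in any comparison. Over all detected genes the share called in a given direction was 0.0559% to 0.625% across the comparisons. The median differences of the list were 0.07 for treated minus control, 0.09 for treated minus opposite side and 0.05 for opposite side minus control. Without overlap of the arrays 9 of the 18 genes lay above and 1 below the controls in the treated pool, beside 34.7% and 40.5% of all detected genes. By representative probe sets LATS1, which is in both lists, had the largest treated minus control difference of this list. The kinase MAP4K4 at 0.31 and the protocadherin FAT1 at 0.30 followed. Other probe sets that reached 5 gave 0.38 to 0.59 for MAP4K4. For NF2 the representative probe set gave 0.28 and another detected one 0.73, so this order depended on the probe set. Against the opposite-side pool the largest were the polarity protein PATJ at 0.64, the kinase STK4 at 0.48 and NF2 (merlin) at 0.45. PATJ had means of 6.58 in the treated pool, 5.94 in the opposite-side pool and 6.66 in the control pool. Another PATJ probe set, with 5.52 in the treated pool, 5.41 in the opposite-side pool and 5.85 in the control pool, differed by 0.11 for treated minus opposite side. In the same comparison the other STK4 probe sets that reached 5 in some pool differed by 0.0085 and -0.36.

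Among the other TEAD factors and their cofactors, 3 of 7 genes were detected and 0 passed in any comparison. The share of all detected genes called in a given direction was 0.0559% to 0.625% across the comparisons. For treated minus control TEAD3 differed by 0.14, TEAD4 by 0.02 and the TEAD-binding repressor VGLL4 by -0.22. By their other detected probe sets TEAD4 differed by 0.19 and VGLL4 by -0.0045. Against the opposite-side pool TEAD3 differed by 0.20, TEAD4 by 0.036 and VGLL4 by 0.12. There the other detected probe sets gave 0.25 for TEAD4 and 0.10 for VGLL4. TEAD2, VGLL1, VGLL2 and VGLL3 were below 5 in every pool, as were CCN3, CCN4, CCN5 and CCN6, the other 4 members of the CCN family.

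Genes linked to SRF and its MRTF co-activators were compared because CCN1 and CCN2 are also known SRF targets. Of 18 genes 16 were measured by a probe set of their own and 10 were detected. EGR1 and TAGLN, an actin-binding protein of smooth muscle, were called higher in the treated pool than in the controls. Over all detected genes 0.625% were called higher and 0.0972% lower. These shares were 0.28% and 0.0559% for treated minus opposite side, and 0.237% and 0.167% for opposite side minus control. Without overlap of the arrays 9 of the 10 lay higher and 1 lower in this comparison, beside 34.7% and 40.5% of all detected genes. EGR1 had 8.27 ± 0.084 in the treated pool, 6.75 ± 0.062 in the opposite-side pool and 6.49 ± 0.011 in the control pool, and also passed against the opposite-side pool, by 1.52. TAGLN had 8.44 ± 0.037 in the treated pool, 7.83 ± 0.038 in the opposite-side pool and 6.78 ± 0.125 in the control pool, and passed for opposite side minus control. The other TAGLN probe sets were below 4 in every pool. JUNB, a subunit of AP-1, had 5.65 in the treated pool, 4.90 in the opposite-side pool and 4.98 in the control pool, at least 1.56-fold higher against 5 in both comparisons. FOS, its partner, differed by 0.13 for treated minus control and 0.77 for treated minus opposite side. The list median was 0.37 for treated minus control, 0.10 for treated minus opposite side and 0.25 for opposite side minus control, and 0 genes were called lower in any of them.

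**Figure D3:**
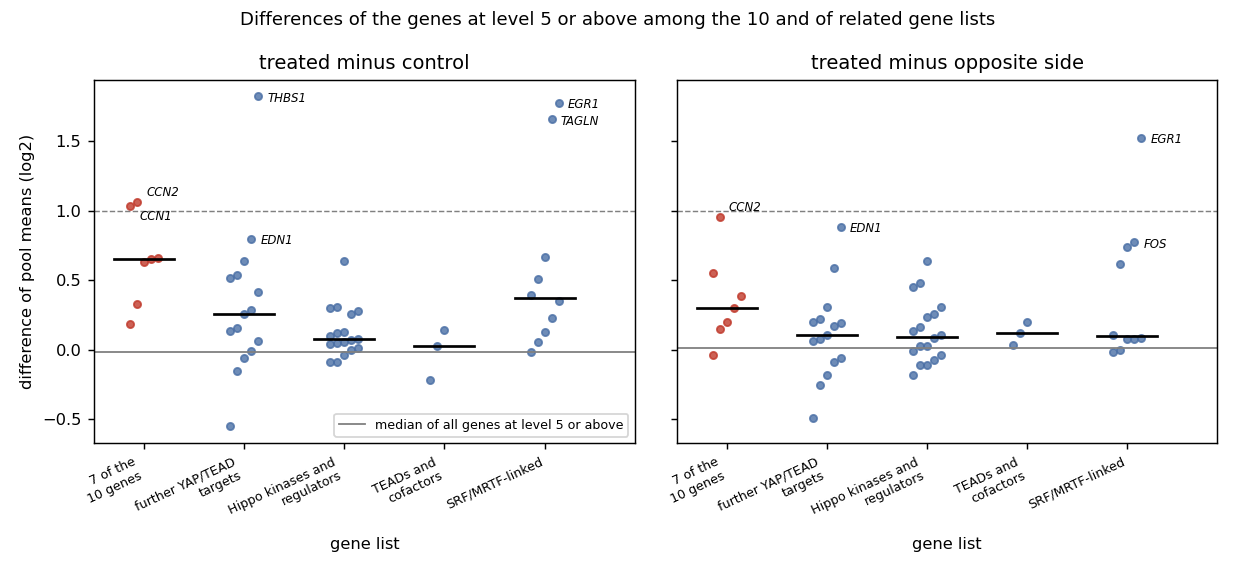
Differences of pool means (log2) for the detected genes among the 10 and in 4 related lists, treated minus control on the left and treated minus opposite side on the right. Each point is a gene, black lines are list medians, the grey line is the median of all detected genes and the dashed line marks 1. The 7 detected members lie between 0.18 and 1.06 on the left and between -0.036 and 0.96 on the right.

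Some markers of other cells moved with some of these genes, while most were not detected. CCN1, CCN2, TAGLN and THBS1 are also expressed by fibroblasts and vessel wall cells, and the host tissue is mouse. The summed level of 10 fibroblast and matrix markers (log2 of the sum) was 8.87 on both treated arrays, 8.85 to 8.87 on the opposite-side arrays and 8.08 to 8.20 on the control arrays. Of these markers 3 were detected, VIM was called higher in the treated pool (by 1.14) and the opposite-side pool (by 1.26) than in the controls, the collagen COL1A1 differed by 0.67 and the fibronectin FN1 by 0.012 for treated minus control, and COL1A2, COL3A1, DCN, LUM, PDGFRB, THY1 and SPARC were below 5 in every pool. The 6 smooth muscle and pericyte markers summed to 8.60 to 8.64 on the treated arrays, 8.06 to 8.10 on the opposite-side arrays and 7.20 to 7.33 on the control arrays. TAGLN alone was detected among them, and ACTA2, MYH11, CNN1, DES and RGS5 were below 5, so their sum describes mainly TAGLN. Other TAGLN probe sets stood at 3.82 and 3.88 in the treated pool, 3.91 and 3.94 in the opposite-side pool, and 3.82 and 3.56 in controls.

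The 7 measured skeletal muscle markers summed to 7.70 to 7.77 on the treated arrays, 7.20 on both opposite-side arrays and 6.78 to 6.80 on the control arrays, with 3 detected and MYL1, TNNC2, CKM and MB below 5. ACTA1, the skeletal muscle actin, was called higher in the treated pool than in both others, with 5.27 in the treated pool, 4.11 in the opposite-side pool and 3.10 in the control pool. As both others lay below 5, ACTA1 was at least 1.21-fold higher against 5 in each comparison. The myosin light chain MYL11 was called for treated minus control, with 6.65 in the treated pool, 5.89 in the opposite-side pool and 5.05 in the control pool. The troponin TNNT3 differed by 0.058 for treated minus control. The 6 endothelial markers summed to 5.93 on both treated arrays, 5.87 on both opposite-side arrays and 5.94 to 5.97 on the control arrays, with FLT1 alone detected. Of 4 measured leukocyte markers LYZ alone was detected, so their sum describes LYZ and not leukocytes. The sums were 11.8 on both treated arrays, 11.7 to 11.8 on the opposite-side arrays and 11.6 on both control arrays. Another LYZ probe set went the other way, with 9.09 in the treated pool, 9.12 in the opposite-side pool and 9.215 in the control pool. The 10 tumour epithelial markers summed to 15.1 in both pools of the treated animals and 15.0 in the control pool. Of the 9 detected, 0 were called in any comparison, beside 0.0559% to 0.625% of all detected genes in a given direction. The largest treated minus control differences among the epithelial markers were 0.27 for the keratin KRT20, 0.19 for KRT8 and 0.19 for the cadherin CDH1. For treated minus opposite side they were -0.24 for the adhesion protein CEACAM5, -0.12 for CDH1 and -0.11 for the keratin KRT19. For ACTB, an actin whose probe sets serve to check how complete the labelled RNA is, the probe set at the 5′ end stood at 8.91 in the treated pool, 9.07 in the opposite-side pool and 7.79 in the control pool, and the one at the 3′ end at 13.6 in the treated pool, 13.5 in the opposite-side pool and 13.4 in the control pool. GAPDH, a glycolytic enzyme with the same kind of probe sets, went the other way at its 5′ end, with 11.1 in the treated pool and 11.6 in both the opposite-side and the control pool. At its 3′ end GAPDH stood at 13.5 in all 3 pools. The part of these markers and of RNA quality in the differences of CCN1, CCN2 and the other members was not tested.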

How the data were processed

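The table deposited by the authors holds log2 expression for 54675 probe sets on 6 arrays. The submitters' processing notes name GCRMA without a version, a method that subtracts background by probe sequence, makes the arrays' distributions alike and joins the probes of a set. That values are log2 follows from their range. On each array 27.8% to 28.5% of the probe sets lay at the lowest value. Arrays have no depth.

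Probe sets naming 1 gene (41097, of which 41043 matched a current gene by Entrez identifier) were kept. Those naming several (1801) or none (11777) were left out. With 1 pool per group, arrays were averaged and described by the size rule, with no test. A list was summarised over genes with either pool at or above 5. The members and lists were chosen with earlier results of these data known. Named genes were all members, list genes past the rule, up to 3 list genes with the largest absolute difference in treated minus control and in treated minus opposite side, the 4 genes nearest to CCN1 and to CCN2, and EGR1 and HSPA6 for comparison. Alternatives changed the floor, the minimum difference, array agreement, probe set choice, averaging and scaling, and left out each array. Computation used Python 3.11.15 with pandas 2.3.3 and numpy 2.4.6, and figures matplotlib 3.10.9.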

Additional observations from a re-analysis of the deposited data

How the results depend on the processing

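The count of members called for treated minus control was 2 and became 5 with a minimum difference of 0.5 (AMOTL2, AJUBA and YAP1 in addition) and 0 with 1.5. It ranged from 1 to 2 when an array was left out, CCN1 being lost without treated replicate 1. For treated minus opposite side the count of 0 became 2 (CCN1 and CCN2) with 0.5. For opposite side minus control it was 0 under all 16 alternatives. CCN1 for treated minus opposite side was 0.75 by the mean of its probe sets, 0.96 by the probe set with the largest variance and 0.36 with the spike-in scaling. For opposite side minus control the same 3 settings gave CCN1 differences of 0.27, 0.058 and 0.66, setting the arrays to the same median gave 0.52 and quantile normalization 0.53. CCN2 for treated minus opposite side was 0.93 with quantile normalization and 0.77 with the spike-in scaling, and for opposite side minus control 0.16 and 0.28. The treated minus control difference was 0.956 to 1.115 for CCN1 and 1.04 to 1.09 for CCN2 under 11 alternatives each. These moves were smaller than the spread between arrays, which for leaving out 1 of 2 arrays holds by construction. As CCN2 has 1 probe set, the choice of probe set could not change its difference either. Without _x_at and _s_at probe sets AXL had no value.

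Over all genes, the higher and lower calls for treated minus control were 45 and 7, which became 293 and 206 with a minimum difference of 0.5 and 18 and 1 with 1.5. For treated minus opposite side 20 and 4 became 240 and 130 with 0.5, 8 and 0 with 1.5, and 10 and 3 without _x_at and _s_at probe sets. For opposite side minus control 17 and 12 became 173 and 308 with 0.5, 2 and 0 with 1.5, 26 and 21 with the probe set of largest variance, and 11 and 7 with a floor of 6. The causes of these changes were not tested, beyond what each setting fixes by its construction. No paired analysis was possible because the shared replicate numbers mark technical arrays of 3 separate pools and the results come from no test. The 2 arrays per pool limit the precision of each pool mean, and genes below 5 have no usable fold. With 1 pool per group the spread between tumours is not known, and more arrays of the same pools would not show it.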

Other observations

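CCDC80 and TGFB1, target genes with values below 5 in every pool, are named here after their values were seen. CCDC80, a matrix protein of the YAP/TAZ signature, had means of 4.52 in the treated pool, 4.51 in the opposite-side pool and 3.82 in the control pool. TGFB1, the growth factor, had 4.08 in the treated pool, 3.54 in the opposite-side pool and 3.89 in the control pool. NF2, which was detected, had means of 7.77 in the treated pool, 7.32 in the opposite-side pool and 7.49 in the control pool, and another of its probe sets had 5.68 in the treated pool, 5.29 in the opposite-side pool and 4.95 in the control pool. The probe sets of NF2 thus differed in the order of the opposite-side and control pools, as those of YAP1 and TEAD1 did.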
